A study of Macaca mulatta with 56 samples.

Results

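Serotonin is received in the brain by a family of G protein-coupled receptors and broken down by a pair of monoamine oxidases, and 9 genes of this system were followed here: the receptor genes HTR1A, HTR1B, HTR2A, HTR2B, HTR2C, HTR4 and HTR7, and the oxidase genes MAOA and MAOB. They are 9 of the 17807 Ensembl macaque gene identifiers measured in 4 brain regions, and they were chosen by symbol. All 9 were read in the amygdala. In hippocampus, occipital cortex and prefrontal cortex a gene was read only where its mean log2(value + 1) over these 3 regions lay within 2 (4-fold) of its mean in the amygdala, which held for 8 genes and not for HTR2C. HTR2C lay 2.29 below its amygdala level and was the member just outside the limit. HTR2A, 1.48 above, was the member just inside it.

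Serotonin is made by neurons whose cell bodies sit in the raphe nuclei of the brainstem, so the forebrain receives the transmitter by axon while making the receptors itself. HTR1A and HTR1B couple to inhibitory Gi/o proteins and reduce neuronal firing or transmitter release. HTR2A, HTR2B and HTR2C couple to Gq and phospholipase C, and HTR4 and HTR7 couple to Gs and raise cyclic AMP. MAOA and MAOB are enzymes of the outer mitochondrial membrane that deaminate monoamines. MAOA prefers serotonin and noradrenaline, and MAOB, which prefers phenylethylamine, is known from astrocytes and from serotonergic cell bodies. The 2 oxidase genes are neighbours on the X chromosome, with 0 protein-coding genes between them in the RefSeq annotation of the assembly T2T-MMU8v2.0.

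The study asked how long-term estradiol affects the brain of old females kept on a Western-style diet. All 14 rhesus macaques were female, 19.4 to 23.2 years old, ate that diet, with 36% of calories from fat (regular chow has 13%), and lost ovaries and uterus about 6 weeks after that diet began, so the control animals too were on the diet and ovariectomized. The hormone therapy group (HT, 7 animals) carried estradiol capsules that gave 82.1 pg/mL in serum. The control group (OvH, 7 animals) carried empty capsules and had 6.6 pg/mL, and tissue was taken at the end of a study given as 30 months. RNA came from pulverized pieces of amygdala (AMYG), hippocampus (HIP), occipital cortex (OC) and prefrontal cortex (PFC) of each animal, so every region held 7 HT and 7 OvH libraries, 56 in all, with 34629533 to 93335855 reads each. The values below are the authors' upper-quartile normalized read counts, called values. They are not divided by gene length, so levels were compared between regions and animals but not between genes. In such bulk tissue, fewer cells of a type and less RNA per cell cannot be told apart.

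2 features of the data touch every regional value. First, the amygdala columns and the other columns did not match along the whole table: 75.9% of identifiers passed the 4-fold limit, against 97.8% when hippocampus was set against the 2 cortices in the same way, and 33.6% or 33.5% when the other regions' rows were moved by 50 identifiers. A gene that passed may therefore still carry the values of another gene outside the amygdala. Among the 20 nearest rows, 10 passed for HTR1A and 11 for HTR7, and 16 to 20 passed for the other 6 members read there, so the names of HTR1A and HTR7 outside the amygdala are the less secure ones. Hippocampus, occipital cortex and prefrontal cortex share one order of rows, and comparisons among them compare the same row.

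Second, the hippocampal libraries of animals 30 and 43, both OvH, stood apart. Their mean log2(value + 1) over the 3 neocortex markers used (CUX2, RORB and TBR1) was 12.33 and 11.50, where the other 12 hippocampal libraries lay between 7.57 and 9.38. Over the 5 hippocampus markers (PROX1, ZBTB20, FIBCD1, ADGRG2 and CALB1) they had 8.56 and 8.41, and the other 12 had 9.64 to 10.83. On the same scales the prefrontal libraries ran from 10.51 to 12.05 and from 7.43 to 8.57, a range that holds animal 43, while animal 30 lay above it for neocortex markers. Their labels were kept. The regional and hippocampal HT values of the members are given with and without them, and those of the other serotonin genes and of each treatment alone with them. The hippocampal libraries of animals 33 (OvH) and 40 (HT) held choroid plexus markers at 11.25 and 11.67, against 3.66 to 7.48 in the other 12.

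**Figure D1:**
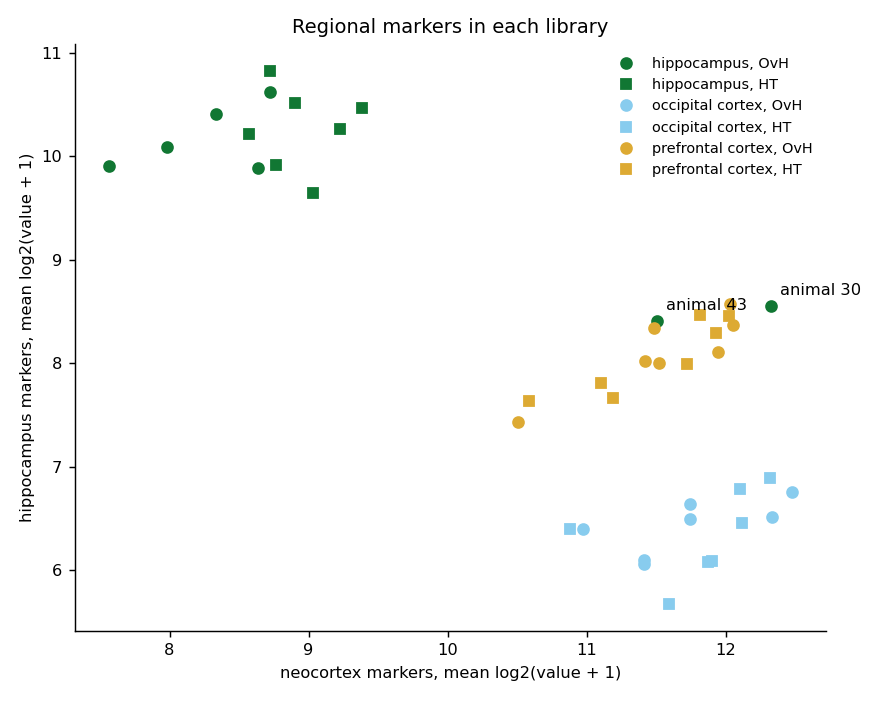
Each point is a library of hippocampus, occipital cortex or prefrontal cortex, placed by its mean log2(value + 1) over neocortex markers (x axis) and over hippocampus markers (y axis), with circles for OvH and squares for HT. The hippocampal libraries of animals 30 and 43 lie at 12.33 and 11.50 on the x axis, and the other 12 hippocampal libraries lie between 7.57 and 9.38.

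Most members differed between regions of the same animal. Between hippocampus and occipital cortex 7 of 8 members differed (5 higher and 2 lower in hippocampus), where 50.7% of all 16354 tested identifiers did (28.1% higher and 22.6% lower). Between hippocampus and prefrontal cortex all 8 differed (5 higher, 3 lower), against 43.4% of all (20.9% higher, 22.6% lower). Between occipital and prefrontal cortex 4 of 8 differed (1 higher and 3 lower in occipital cortex), against 47.9% of all (19.7% higher, 28.2% lower). These calls are adjusted p values at or under 0.05 from limma with the animal as a block, adjusted over all tested identifiers, and all 8 members passed the filter on low values. The median member lay 0.58 higher in hippocampus than in occipital cortex on the log2 scale and 0.38 higher than in prefrontal cortex, where the medians of all identifiers were 0.03 and -0.01. Every call held when any 1 of the 14 animals was left out.

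**Figure D2:**
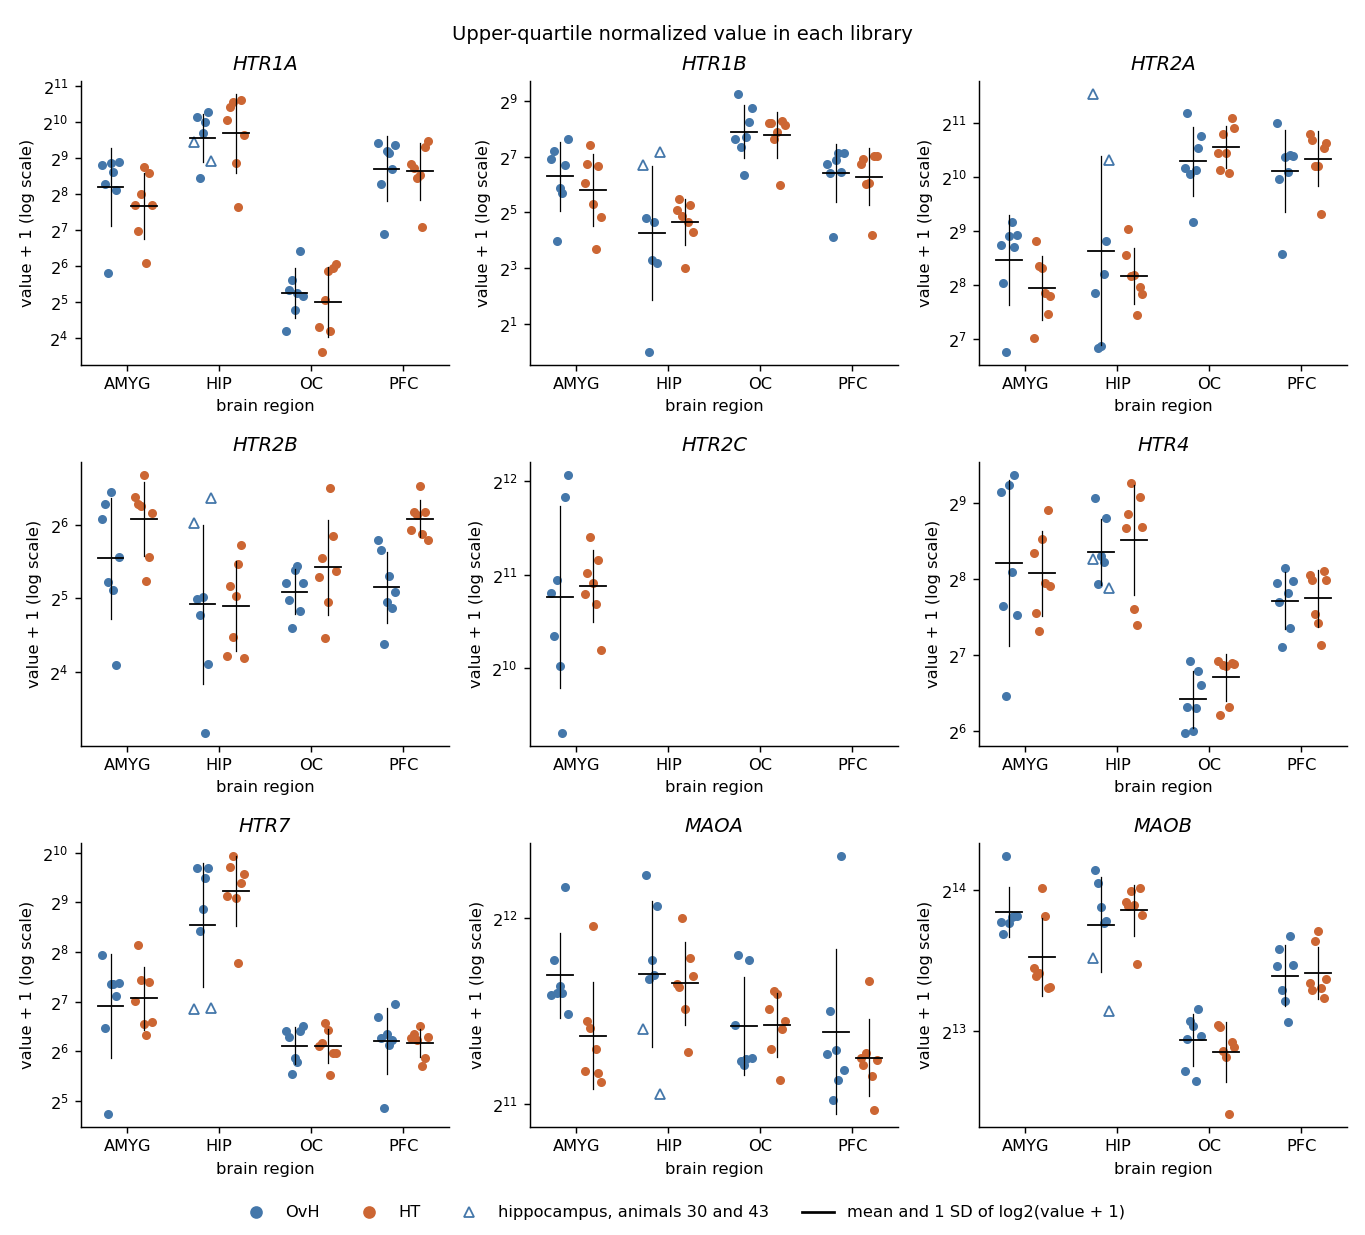
Upper-quartile normalized value plus 1 (log axis) of each of the 9 genes in each library, by brain region (x axis), with blue for OvH, orange for HT, open triangles for the hippocampal libraries of animals 30 and 43, and bars for the mean and 1 SD of log2(value + 1) in each group of 7. HTR1A, HTR4 and HTR7 are highest in hippocampus, HTR1B in occipital cortex, and HTR2A is lower in hippocampus than in both cortices of the same animal in all animals but 30.

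HTR1A (ENSMMUG00000001789) encodes the inhibitory receptor that serves as an autoreceptor in the raphe and as a postsynaptic receptor in limbic areas. Over 14 hippocampal libraries its lowest, median and highest values were 199, 923 and 1574. In prefrontal cortex they were 117, 439 and 711, and in occipital cortex 11.4, 36.3 and 84.6. No occipital library reached the lowest hippocampal or prefrontal one, so the occipital values stood clear of both. Hippocampus exceeded occipital cortex 22.4-fold (95% interval 15.6 to 32.1, adjusted p = 3.43e-15, limma) and in 14 of 14 animals. Prefrontal cortex exceeded occipital cortex 11.6-fold (adjusted p = 2.84e-12, limma), also in 14 of 14. The step from prefrontal cortex to hippocampus was 1.94-fold (1.35 to 2.77, adjusted p = 0.00315, limma), and only animal 43, whose hippocampal library stood apart, went against it. All neighbours in the order hippocampus, prefrontal cortex, occipital cortex thus differed. Without the hippocampal libraries of animals 30 and 43 the folds over occipital and prefrontal cortex were 23.9 and 2.07. The folds over occipital cortex rest on few reads there, 10 to 117 per library.

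HTR1B (ENSMMUG00000015717), the inhibitory receptor of axon terminals, had the reverse order. Its values ran from 62.1 through a median of 258 to 611 in occipital cortex, from 16.4 through 106 to 138 in prefrontal cortex, and from 0 through 25.6 to 144 in hippocampus. The highest hippocampal values, 103 and 144, were those of animals 30 and 43, and the other 12 libraries lay at or under 43.3. Animal 32 had 0 reads of HTR1B in hippocampus, and a count of 0 allows up to 3 reads by counting error alone. Hippocampus was 10.4-fold lower than occipital cortex (adjusted p = 1.05e-09, limma; 14 of 14 animals) and 3.68-fold lower than prefrontal cortex (adjusted p = 5.2e-05; 12 of 14). Occipital cortex exceeded prefrontal cortex 2.81-fold (adjusted p = 0.000655, limma) in 13 of 14 animals, all but animal 33. Without the libraries of animals 30 and 43 hippocampus was 13.1-fold and 4.64-fold lower than the 2 cortices. These folds rest on few reads, 0 to 122 per hippocampal library, and on the added 1.

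HTR2A (ENSMMUG00000004210) encodes the Gq-coupled receptor of cortical pyramidal cells, known as the target of classical psychedelics and of atypical antipsychotics. The lowest, median and highest values were 572, 1395 and 2344 in occipital cortex and 380.2, 1328 and 2043 in prefrontal cortex. In hippocampus they were 113, 289 and 2977, and the 2 highest, 2977 and 1279, belonged to animals 30 and 43. The other 12 hippocampal libraries ended at 525, with a median of 268, and of these only the 2 highest cleared the lowest prefrontal value. Hippocampus was 4.06-fold lower than occipital cortex (2.82 to 5.84, adjusted p = 8.56e-08, limma) and 3.54-fold lower than prefrontal cortex (adjusted p = 1.3e-06), in 13 of 14 animals each, animal 30 going the other way. Without those 2 libraries the folds were 5.28 and 4.60. The 2 cortices differed by 0.20 on the log2 scale (95% interval -0.33 to 0.72, adjusted p = 0.552, limma), so their order was not resolved.

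HTR2B (ENSMMUG00000011773), a Gq-coupled receptor better known from heart valves, gut and vessels than from brain, was sparse everywhere. The hippocampal libraries ran from 8.04 through a median of 31.0 to 81.0, the occipital ones from 21.1 through 37.0 to 89.0 and the prefrontal ones from 19.9 through 54.4 to 91.2, with 9 to 110 reads per library. These ranges overlapped widely. Hippocampus was 1.63-fold lower than prefrontal cortex (adjusted p = 0.0112, limma; 10 of 14 animals). Neither neighbouring step passed the threshold, with a hippocampus minus occipital difference of -0.35 (-0.81 to 0.11, adjusted p = 0.199) and an occipital minus prefrontal difference of -0.36 (-0.82 to 0.10, adjusted p = 0.189). Without the hippocampal libraries of animals 30 and 43, where HTR2B read 64.2 and 81.0, hippocampus was lower than occipital cortex by limma (log2 difference -0.58, adjusted p = 0.0159), in a fit that called 56.3% of all identifiers, and 1.92-fold lower than prefrontal cortex.

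The Gs-coupled receptors were both highest in hippocampus. HTR4 (ENSMMUG00000016913), whose agonists raise acetylcholine release and have been studied for memory, read 167, 362 and 614 there (lowest, median, highest), 137, 235 and 282 in prefrontal cortex, and 62.1, 103 and 121 in occipital cortex. No occipital library reached the lowest prefrontal or hippocampal value. Hippocampus exceeded occipital cortex 3.66-fold (adjusted p = 1.25e-11, limma; 14 of 14 animals) and prefrontal cortex 1.62-fold (adjusted p = 0.000491; 13 of 14, all but animal 43). Prefrontal exceeded occipital cortex 2.25-fold (adjusted p = 3.3e-07, limma) in 14 of 14 animals, so all 3 levels of HTR4 differed, in the same order as those of HTR1A. Without animals 30 and 43 the hippocampal folds over occipital and prefrontal cortex were 3.80 and 1.69.

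HTR7 (ENSMMUG00000059038), a receptor tied to sleep and circadian timing, read 114, 612 and 974 in hippocampus. In prefrontal cortex it read 28.1, 75.9 and 123, and in occipital cortex 44.5, 69.4 and 94.0. The hippocampal values of animals 30 and 43, 114 and 115, fell within the cortical range, and the other 12 began at 217.5, above every cortical library. Hippocampus exceeded occipital cortex 6.88-fold (4.87 to 9.71, adjusted p = 4.44e-11, limma) and prefrontal cortex 6.49-fold (adjusted p = 2.1e-09), and without those 2 libraries 9.21-fold and 8.69-fold. The 2 cortices differed by -0.08 (95% interval -0.58 to 0.41, adjusted p = 0.802, limma), and 9 of 14 animals had the lower value in occipital cortex.

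**Figure D3:**
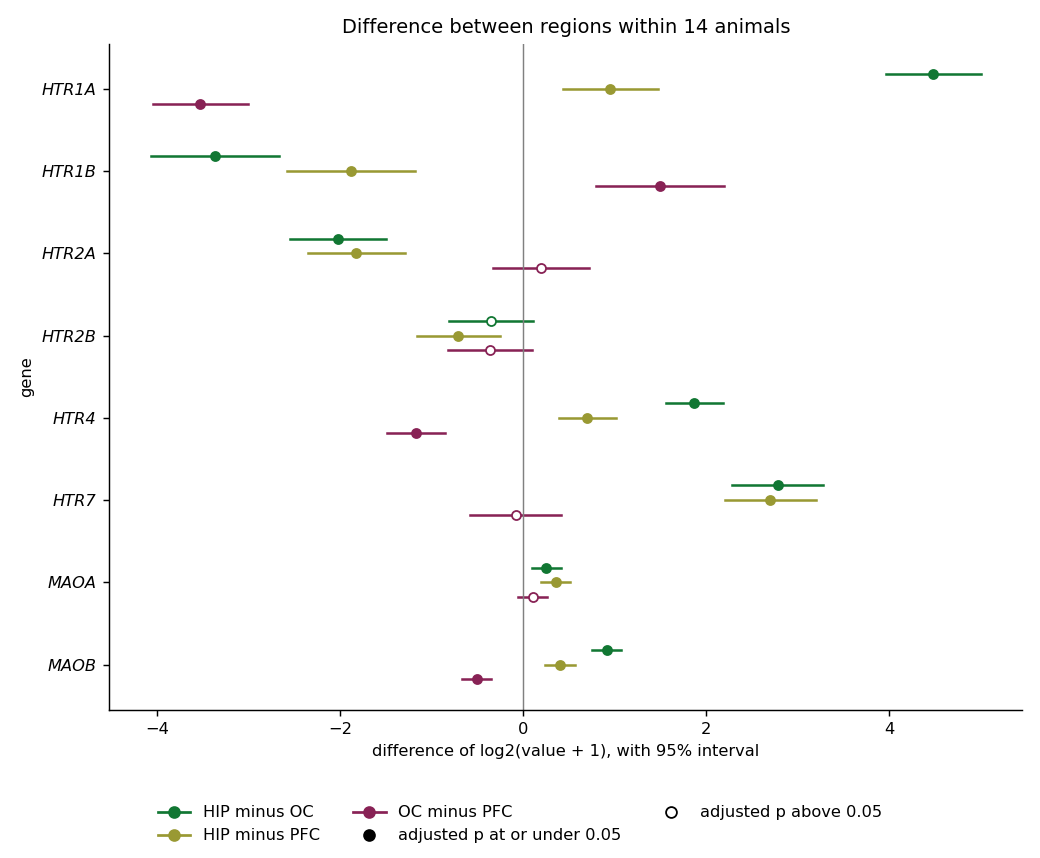
Difference in log2(value + 1) between regions of the same 14 animals (x axis) for the 8 genes read in all regions (y axis), with 95% intervals from limma, filled points for an adjusted p at or under 0.05 and open points above it. HTR1A spans the widest range, from 4.48 for hippocampus minus occipital cortex to -3.53 for occipital minus prefrontal cortex, while the differences of MAOA stay between 0.10 and 0.35.

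The oxidases varied far less. MAOA (ENSMMUG00000019489) read 2126, 3279 and 4802 in hippocampus (lowest, median, highest), 2233, 2725 and 3567 in occipital cortex, and 2004, 2418.5 and 5145 in prefrontal cortex, and these ranges overlapped almost throughout. Its log2 difference was 0.25 between hippocampus and occipital cortex (1.19-fold, adjusted p = 0.00865, limma) and 0.35 between hippocampus and prefrontal cortex (1.28-fold, adjusted p = 0.000578), each in 11 of 14 animals. The first of these rests on the comparison within animals: without the animal as a block the adjusted p was 0.0607, in a fit that called 44.4% of all identifiers. Without animals 30 and 43 hippocampus exceeded occipital cortex 1.24-fold and prefrontal cortex 1.33-fold. Occipital minus prefrontal cortex was 0.10 (-0.06 to 0.26, adjusted p = 0.296, limma).

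MAOB (ENSMMUG00000019492) read 9045, 15132 and 18106 in hippocampus, 8569, 10493.5 and 13394 in prefrontal cortex, and 5458, 7836 and 9134 in occipital cortex. Only animal 43 brought a hippocampal library down into the occipital range. Without animals 30 and 43 the hippocampal values began at 11396, above every occipital one, and the folds over occipital and prefrontal cortex were 1.99 and 1.4. Hippocampus exceeded occipital cortex 1.88-fold (1.68 to 2.10, adjusted p = 3.25e-11, limma; 14 of 14 animals) and prefrontal cortex 1.32-fold (adjusted p = 0.000125; 13 of 14). Prefrontal exceeded occipital cortex 1.42-fold (adjusted p = 4.19e-06, limma; 14 of 14). The order of MAOB was thus that of HTR1A and HTR4, at a smaller scale. The summed level of the 9 astrocyte markers used (of 10) ran from 287812 to 399278 in hippocampus, 256434 to 387109 in prefrontal cortex and 228868 to 430034 in occipital cortex, with none at 0, and that of the 10 pan-neuronal markers from 364314 to 689100, 433378 to 663637 and 560881 to 740081. The part of these cell types in the regional differences was not tested.

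The regional order was also read within each treatment alone, in analyses chosen after the data had been seen. Within OvH, which holds animals 30 and 43, HTR1A lay 4.30 higher in hippocampus than in occipital cortex on the log2 scale and within HT 4.67 higher. HTR7 lay 2.44 and 3.12 higher, HTR4 1.94 and 1.8 higher, and MAOB 0.82 and 1.0 higher. HTR1B was lower by -3.64 and -3.10, and HTR2A by -1.65 and -2.39. All of these passed the threshold in both treatments by limma, where 23.7% of all identifiers passed in OvH and 43.3% in HT, whereas MAOA, at 0.28 and 0.22, passed in neither (adjusted p = 0.137 and 0.093). Against prefrontal cortex OvH alone did not pass for HTR1A (0.85, adjusted p = 0.116), HTR4 (0.64, 0.0795), MAOA (0.31, 0.12), MAOB (0.36, 0.0744) or HTR2B (-0.23, 0.69), which in HT lay at 1.05, 0.76, 0.40, 0.44 and -1.19 and passed by limma. Over all identifiers, too, fewer passed in OvH (15.7%) than in HT (31.4%). Between occipital and prefrontal cortex, where 22.9% passed in OvH and 31.6% in HT, HTR1B lay at 1.49 in both and passed in HT alone (adjusted p = 0.0749 and 0.00198), and HTR1A, HTR4 and MAOB passed in both.

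The amygdala level of each gene is a description only, because it took part in choosing which rows were read elsewhere. HTR1A read 55.3, 295 and 471 there (lowest, median, highest), between its occipital and prefrontal medians, and HTR1B 11.8, 82.7 and 200.5, between its hippocampal and prefrontal medians. HTR2A read 108, 319.7 and 575, close to hippocampus. HTR2B read 16.2, 68.4 and 101. HTR4 read 87.6, 259.6 and 661, and HTR7 25.6, 149.6 and 282. MAOA, at 2223, 2963 and 4589.6, and MAOB, at 10138, 13989 and 19384, lay between their hippocampal and cortical medians. The amygdala markers used, 3 of 5, had a mean log2(value + 1) of 11.17 to 12.77 in these libraries.

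HTR2C (ENSMMUG00000009607), a Gq-coupled receptor linked to feeding and anxiety and very abundant in choroid plexus, was read in the amygdala alone. In the 7 OvH libraries it read 1783, 1298, 1962, 1037, 632, 3648 and 4285 for animals 30, 31, 32, 33, 34, 35 and 43. In HT it read 1768, 2078, 2710, 1928, 1648, 2273 and 1167 for animals 36 to 42 in order. OvH thus held both the highest and the lowest values, and the HT range lay wholly inside that of OvH. Choroid plexus markers in the amygdala (9 of 10 used, none at 0) stood at 7.47 in animal 35 and 7.05 in animal 42, against 3.96 to 5.55 in the other 12. HTR2C was high in the first of these and low in the second, and the part of choroid plexus in its level was not tested beyond that.

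Estradiol was compared with placebo in each region. In the amygdala 0 of 9 members passed, where 6.89% of 16129 identifiers did. In hippocampus, occipital cortex and prefrontal cortex 0 of 8 members passed, and 0% of all identifiers did in each of the 3 regions. The same count, 0 of 8 against 0% of all, held for the mean over these 3 regions and for a difference of the HT effect among them. These are counts at an adjusted p of 0.05 or less by limma. Over all identifiers, unadjusted p values under 0.05 numbered 3474 for the amygdala, 603 for prefrontal cortex, 335 for hippocampus, 303 for occipital cortex, 517 over the 3 regions and 181 for the difference among them. Only the amygdala count exceeded a share of 0.05 of the identifiers tested, the share that chance alone gives on average. The other counts lay under that share. By edgeR the members called were 0 in every one of these comparisons, and by DESeq2 likewise. Of all 16129 identifiers in the amygdala edgeR called 1018 and DESeq2 1732. Outside the amygdala DESeq2 called 12 identifiers for hippocampus, 6 for prefrontal cortex, 0 for occipital cortex and 9 over the 3 regions, and edgeR called 0 in each.

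**Figure D4:**
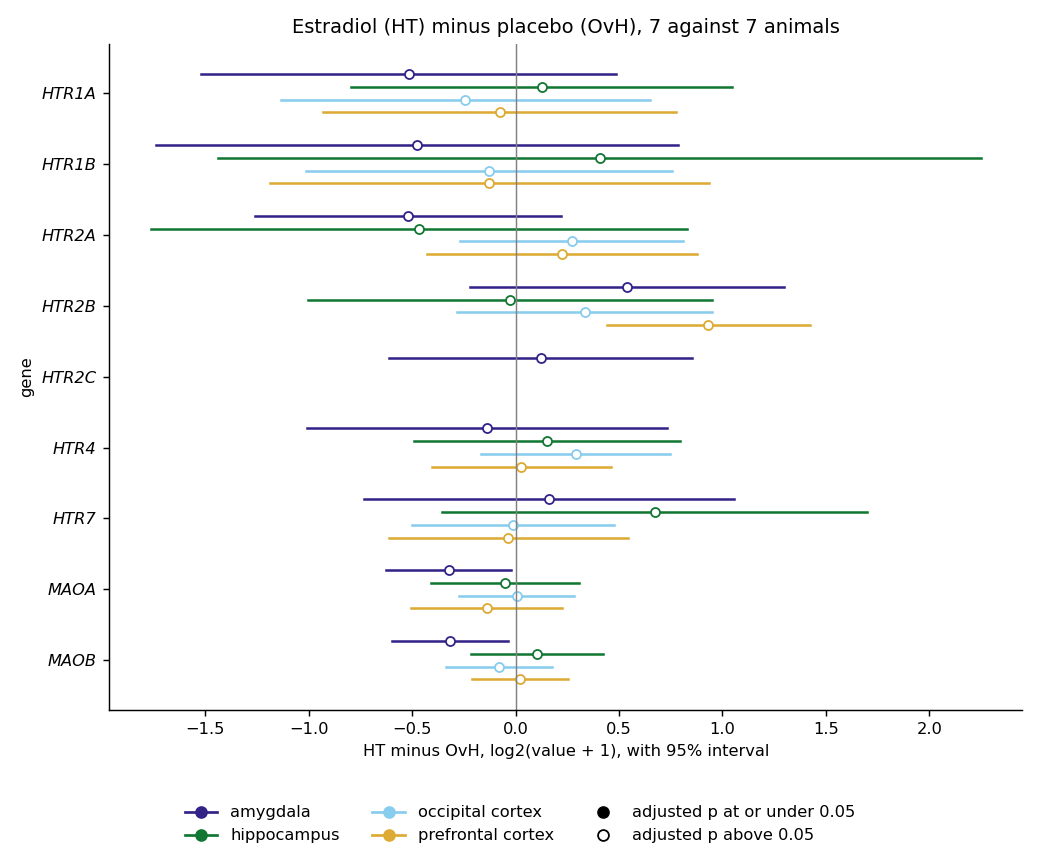
HT minus OvH difference in log2(value + 1) (x axis) for each gene (y axis) and region, 7 animals against 7, with 95% intervals from limma, where open points mark adjusted p values above 0.05. All points are open, and the intervals that leave out 0 are those of MAOA and MAOB in amygdala and HTR2B in prefrontal cortex.

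Within the amygdala the 2 oxidases leaned the same way, as the only 2 of 9 members with an unadjusted p under 0.05 (limma). Over all 16129 identifiers 3474 had such a p, a share close to that of the members. MAOA read 3064, 3492, 3097, 3171, 3097, 4589.6 and 2862 in OvH animals 30, 31, 32, 33, 34, 35 and 43. In HT animals 36 to 42 it read 2313, 2788, 2719, 3970.2, 2510.3, 2293 and 2223. In words, 6 of 7 HT libraries lay below every OvH library, and the seventh, animal 39, lay above all OvH libraries but 1. The difference was -0.32 (SE 0.143, 95% interval -0.62 to -0.02), with an unadjusted p of 0.0375 and an adjusted p of 0.201 by limma. MAOB ran from 13211 through a median of 14379 to 19384 in OvH and from 10138 through 10888 to 16605 in HT, with group means of 12029 ± 2500.3 in HT and 14834 ± 2053 in OvH (SD, n = 7 each). Of its HT libraries 5 lay below every OvH library, and animals 39 and 40 were the exceptions at 16605 and 14464. Its difference was -0.32 (SE 0.132, -0.60 to -0.04), with an unadjusted p of 0.0287 and an adjusted p of 0.173 by limma.

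These 2 values depended on scaling and on single animals. The values of a library summed to 62441387 to 75836033 in HT and 55909040 to 69097257 in OvH amygdala. Scaled to equal totals, where the median of all identifiers moved to -0.20, MAOB lay at -0.53 with an adjusted p of 0.0308 and MAOA at -0.54 with 0.0562 (limma), and 6.28% of all identifiers were called lower. Without animal 39 both passed, MAOA at -0.42 (adjusted p = 0.0429) and MAOB at -0.40 (adjusted p = 0.0451), where 1.4% of all identifiers were called lower. With each animal left out in turn, MAOA ran from -0.42 to -0.24 (adjusted p from 0.0429 to 0.37, limma) and MAOB from -0.40 to -0.25 (0.0451 to 0.289). Only the fit without animal 39 passed. The differences closest to 0 were those without the highest OvH library, that of animal 35 for MAOA and of animal 32 for MAOB. Over the alternatives that kept all animals MAOA ranged from -0.54 to -0.27 and MAOB from -0.53 to -0.32. The summed level of 10 pan-neuronal markers, none at 0, was 389941 to 539928 in HT and 450635 to 657929 in OvH amygdala. The 11 oligodendrocyte markers summed to 790688 to 1609910 in HT and 353946 to 1250350 in OvH, and the 10 astrocyte markers to 437145 to 751216 and 387523 to 763093. With the pan-neuronal mean as a covariate the difference was -0.27 for MAOA (adjusted p = 0.655, limma) and -0.35 for MAOB (adjusted p = 0.506), and with the oligodendrocyte mean -0.37 (adjusted p = 0.28) and -0.44 (adjusted p = 0.13). Calls fell over all 16129 identifiers too, to 0 with the pan-neuronal and 388 with the oligodendrocyte covariate, against 1112 with neither. In the other 3 regions the HT differences of MAOA were -0.05, 0.01 and -0.14 and those of MAOB 0.10, -0.08 and 0.02 in hippocampus, occipital and prefrontal cortex, with every 95% interval reaching across 0. Whether the amygdala differed from those regions in its response was not tested.

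No receptor differed between HT and OvH amygdala beyond the spread between animals. HTR1A lay at -0.52 (95% interval -1.52 to 0.49, adjusted p = 0.579, limma), with HT values of 67.8 to 430.4 and OvH values of 55.3 to 471. HTR1B lay at -0.48 (-1.74 to 0.79) and HTR2A at -0.52 (-1.26 to 0.22). HTR2A read 129 to 448 in HT and 108 to 575 in OvH, and 6 of 7 HT libraries fell below the OvH median. HTR2B leaned upward, at 0.54 (-0.22 to 1.3), with 6 of 7 HT libraries above the OvH median. HTR2C lay at 0.12 (-0.61 to 0.85), HTR4 at -0.14 (-1.01 to 0.73) and HTR7 at 0.16 (-0.73 to 1.05). Adjusted p values of these 7 genes ran from 0.422 to 0.889 by limma.

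The member with the smallest unadjusted p under HT was HTR2B in prefrontal cortex. It read 54.6, 49.4, 19.9, 30.0, 38.6, 28.2 and 33.0 in OvH animals 30, 31, 32, 33, 34, 35 and 43. In HT animals 36 to 42 it read 60.1, 70.8, 68.9, 91.2, 57.5, 70.9 and 54.3. The groups met only at their edges, where OvH animal 30 slightly exceeded HT animal 42, and 6 of 7 HT libraries lay above every OvH library. The difference was 0.93 (SE 0.231, 95% interval 0.44 to 1.42), with an unadjusted p of 0.000984 and an adjusted p of 1.0 by limma, and over the alternatives that kept all animals the adjusted p ran from 0.249 to 1.0. In occipital cortex HTR2B lay at 0.33 (-0.28 to 0.95) and in hippocampus at -0.03 (-1.0 to 0.95). The test of a difference of its HT effect among the 3 regions gave an unadjusted p of 0.0955 and an adjusted p of 1.0 (limma). Each prefrontal library held 17 to 110 reads of HTR2B. Meningeal fibroblast markers (5 of 6 used, none at 0) lay higher in HT for 4 of 5 in prefrontal cortex (median 0.70) and for 5 of 5 in amygdala (0.63), hippocampus (0.71) and occipital cortex (0.44), with 0 called by limma in each. Their summed value in prefrontal cortex was 2438 to 6466 in HT and 1921 to 4557 in OvH, and their part in the HTR2B values was not tested. Over the mean of the 3 regions HTR2B lay at 0.41 (-0.09 to 0.91, unadjusted p = 0.098 and adjusted p = 1.0, limma) and the other 7 members between -0.06 and 0.21.

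Hippocampal HT differences turned on the libraries of animals 30 and 43. HTR7 lay at 0.67 (95% interval -0.35 to 1.70) with them and at -0.01 without them. HTR2A lay at -0.47 (-1.76 to 0.83) with them and at 0.45 without them, HTR2B at -0.03 and 0.48, HTR1A at 0.13 and -0.02, and MAOB at 0.10 and -0.07. HTR1B moved from 0.41 to 1.48 and HTR4 from 0.15 to 0.04, and MAOA from -0.05 to -0.24. No member was called either way by limma. Both HTR1B values rest on few reads, with 0 in OvH animal 32, and on the added 1. With all libraries edgeR put hippocampal HTR1B at -0.68 and DESeq2 put it at -0.71. In occipital cortex HTR4 lay at 0.29 (-0.17 to 0.75), HTR2A at 0.27 (-0.27 to 0.81) and HTR1A at -0.24 (-1.13 to 0.65). In prefrontal cortex HTR2A lay at 0.23 (-0.43 to 0.88), and HTR1A, HTR1B, HTR4 and HTR7 stayed between -0.13 and 0.03.

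Some members differed between animals, and with all libraries their share was not far from that of all identifiers. A comparison added after the data had been seen asked whether animals of 1 treatment differed from each other across hippocampus and both cortices, and 3 of 8 members passed by limma, where 27.3% of all identifiers did: MAOA (adjusted p = 0.00493), HTR1B (0.00908) and HTR2A (0.0424). HTR1A followed at 0.064. MAOA passed with any 1 animal left out and HTR1B with any but animal 32 (0.0546), whereas HTR2A passed in 8 of 14 such fits and failed without animal 32 (0.148). Without the hippocampal libraries of animals 30 and 43 HTR1A (0.0481) and HTR7 (0.000617) passed as well, 5 in all, in a fit that called 39.1% of all identifiers. Without those of animals 33 and 40 HTR2A did not (0.104), where 26.7% passed.

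The animals at the ends of the range are given as a description, with their amygdala values, which took no part in that comparison. Animal 35 (OvH) had the highest MAOA of 14 in amygdala (4589.6) and prefrontal cortex (5145) and the second highest in hippocampus (4274) and occipital cortex (3491), where animal 31 (OvH) was highest at 4802 and 3567. Animal 32 (OvH) had the lowest HTR1A, HTR2A and HTR7 in amygdala and prefrontal cortex, and HTR1A of 55.3 and 117 there compared with amygdala and prefrontal medians of 295 and 439. Animal 40 (HT) had the lowest HTR1A in hippocampus (199) and the lowest HTR1B in amygdala (11.8) and occipital cortex (62.1). These low values were not found in every region: in occipital cortex the HTR1A value of animal 32 (48.1) ranked 10 from the bottom of 14. The pan-neuronal marker mean of animal 32 ranked 4, 6, 7 and 2 from the bottom of 14 in amygdala, hippocampus, occipital and prefrontal cortex, and that of animal 40 ranked 3, 1, 1 and 4. The hippocampal library of animal 40 also held choroid plexus markers at 11.67, against 3.66 to 7.48 in 12 other hippocampal libraries. The part of neuronal content or choroid plexus in the low values was not tested.

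**Figure D5:**
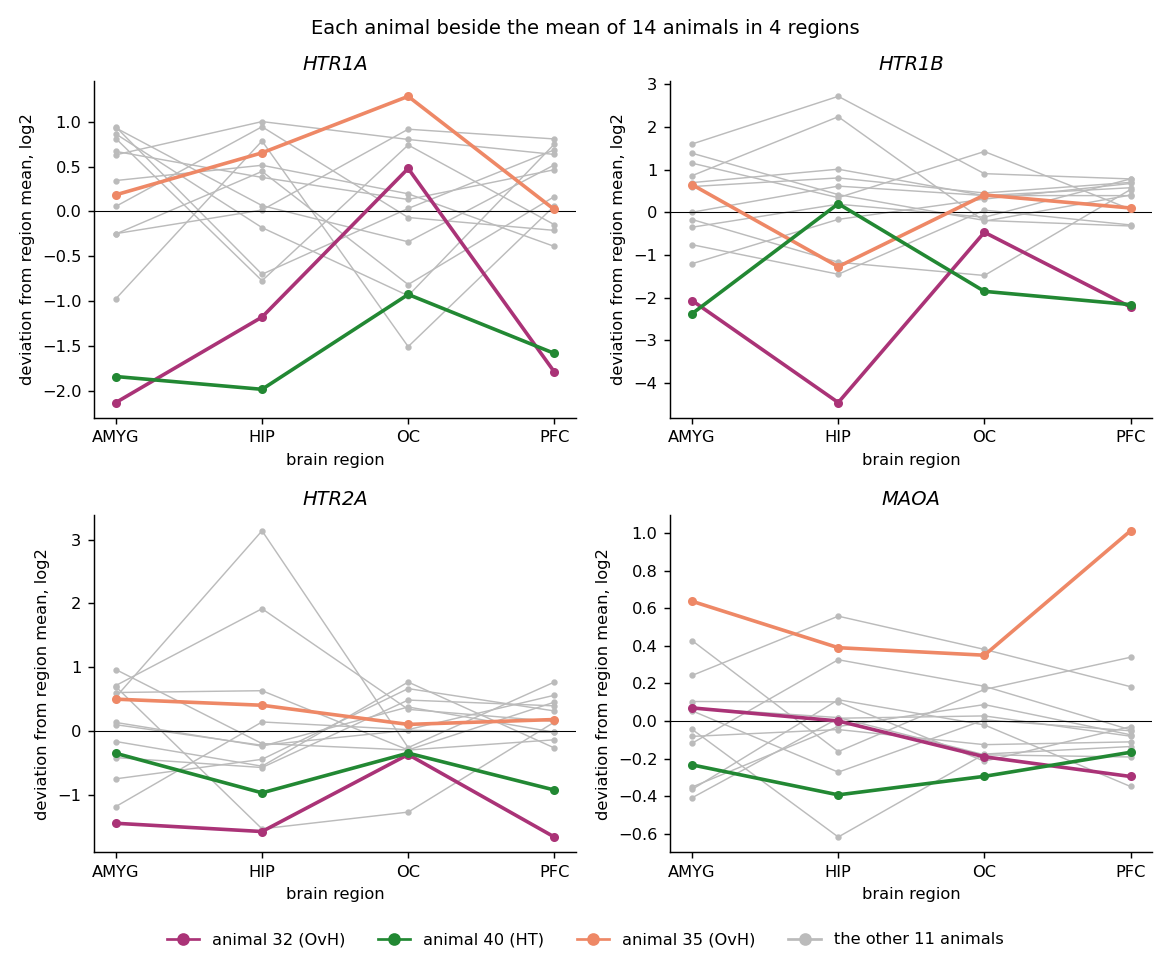
Deviation of each animal from the mean of 14 animals in log2(value + 1) (y axis) in the 4 brain regions (x axis) for HTR1A, HTR1B, HTR2A and MAOA, with 1 line per animal and animals 32, 40 and 35 in colour. Animal 35 lies above the MAOA mean in all 4 regions, and animals 32 and 40 lie below the HTR2A mean in all 4.

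Across the 14 animals the amygdala level was set against the mean of the other 3 regions, each centred on its region, for the 8 members. Pearson's r was 0.79 for HTR1B (permutation p = 0.00128, adjusted over 8 relations 0.0102), and Spearman's rho was 0.72 (permutation p = 0.00478, adjusted 0.0382). Left without animals 32 and 40, the 2 farthest from the median, HTR1B had r = 0.53 over 12 animals. Within OvH r was 0.92 and within HT 0.71. For all 8 members the mean of the other regions included the hippocampal libraries of animals 30 and 43, both OvH. Their hippocampal HTR1B deviated from the region mean by 2.24 and 2.72. That of OvH animal 32, with 0 reads, deviated by -4.46. The value of r without the libraries of animals 30 and 43 was not computed. For HTR1A, whose name outside the amygdala is less secure, r was 0.70 (permutation p = 0.0149, adjusted 0.0596) but 0.07 without animals 32 and 40. For MAOA r was 0.62 (permutation p = 0.0264, adjusted 0.0703) but 0.16 without animals 31 and 35. Leaving out the farthest animals narrows the range and tends to lower r, so it cannot decide how far these 2 relations rest on them. With all animals, r within OvH and HT was 0.69 and 0.79 for HTR1A and 0.94 and 0.43 for MAOA. The other 5 members had r between -0.10 and 0.46 with adjusted permutation p values of 0.259 or more.

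Of 50 genes listed for other receptors, synthesis, transport, breakdown, receptor partners and transcriptional regulators, 38 could be tested in amygdala, and 0 passed for HT by limma, against the 6.89% of all identifiers. Outside it 25 could be tested, 24 in occipital cortex, and 0 passed for HT in any region. Among other receptors in the amygdala (6 tested, median -0.21, 1 higher and 5 lower) the extremes were HTR5A at 0.01 and HTR3A, the ion channel receptor, at -0.37. Of synthesis and transport genes (8 tested, median -0.24) SLC22A2 lay at 0.83 and SLC18A2, the vesicular monoamine transporter, at -0.96 (adjusted p = 0.281, limma). Receptor partners and editing enzymes (10 tested, median -0.24) ran from S100A10 at 0.55 to CNR1 at -0.59. Regulators of HTR1A and MAO transcription (12 tested, median 0.05) ran from DEAF1 at 0.41 to CC2D1A at -0.43, and IDO1, a breakdown enzyme of tryptophan, lay at -0.18. Over hippocampus and both cortices the list medians lay between -0.31 and 0.04, with HTR3A lowest at -0.48 and TPH1 highest at 0.26. The median of all identifiers was 0.01 in both comparisons.

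Between regions 17 of the 25 listed genes differed for hippocampus against occipital cortex (13 higher, 4 lower), 11 for hippocampus against prefrontal cortex (5 higher, 6 lower) and 12 for occipital against prefrontal cortex (2 higher, 10 lower), all by limma. That is 68% of the list against 50.7% of all identifiers, 44% against 43.4% and 48% against 47.9%. Of the other receptors HTR1E, HTR3A and HTR6 were 1.11, 1.14 and 1.0 higher (log2) in hippocampus than in occipital cortex, and HTR5A was lower, at -0.82. In prefrontal cortex HTR3A and HTR5A exceeded hippocampus, with hippocampus minus prefrontal differences of -1.35 and -0.33. Occipital cortex lay under prefrontal cortex for HTR3A (-2.48), HTR6 (-1.31) and HTR1E (-1.27) and over it for HTR5A (0.49). SLC29A4, a low-affinity monoamine transporter, was 2.09 higher in hippocampus than in occipital cortex and 0.65 higher than in prefrontal cortex, and lay at -1.44 for occipital against prefrontal cortex.

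TPH2, the neuronal enzyme of serotonin synthesis, had a mean value under 10 in occipital cortex. Its log2 difference was 3.51 for hippocampus against occipital cortex, 2.01 for hippocampus against prefrontal cortex and -1.50 for occipital against prefrontal cortex. TPH1, the enzyme of pineal and gut, lay at -0.63 and -0.80 in hippocampus against the 2 cortices. Of 6 serotonergic neuron markers 2 were used, and their summed value was at most 385 in any library. IDO1 lay 0.74 higher in occipital than in prefrontal cortex. Among receptor partners ARRB2 and GPRIN1 were higher in hippocampus than in both cortices (0.48 and 0.59 over occipital, 0.37 and 0.77 over prefrontal cortex) and ADARB1, which edits HTR2C transcripts, was lower (-0.61 and -0.69). CNR1, the cannabinoid receptor, and GRM2, a glutamate receptor, lay at -1.82 and -1.37 for occipital against prefrontal cortex and at 1.59 and 0.78 for hippocampus against occipital cortex. GRM2 was lower (-0.59) and S100A10 higher (0.48) in hippocampus than in prefrontal cortex. Of the regulators, CDCA7L, a repressor of MAOA, lay at 1.75 for hippocampus against occipital and -1.93 for occipital against prefrontal cortex, DEAF1, a regulator of HTR1A, at 0.85 and -0.75, and HES5 at 1.18 and -1.33. NR3C1, the glucocorticoid receptor, was lower in hippocampus than in both cortices, at -0.95 and -0.91.

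Likeness to other genes was read over the 42 libraries of hippocampus and both cortices after removing the mean of each region and treatment, as a description over libraries that share animals and include those of animals 30 and 43. Among 10625 candidates, HTR1A was most like HTR4 (Pearson r = 0.84), PAQR9 (0.84) and NLGN1 (0.84), and HTR4 most like MAPK10 (0.86), HTR1A (0.84) and PRKCE (0.84). HTR1B was most like ANKRD34C (0.90), ST6GAL2 (0.89) and TENT4A (0.88). HTR2A was most like GLCCI1, MAP3K13 and RORB, at 0.94 each, and RORB is one of the neocortex markers that set animals 30 and 43 apart. HTR7 came closest to CCBE1 (0.86), ELF2 (0.85) and ACVR1 (0.85). HTR2B, counted among 10626 candidates, came closest to FRMPD2 (0.69), KLF6 (0.69) and CYP1B1 (0.66), the lowest likeness of the 8. MAOA was most like PARD3 (0.77), FKBP5 (0.77) and GALNT16 (0.74), and MAOB most like ENOX2 (0.79), WDR1 (0.78) and BCAN (0.76), while r between the 2 oxidases was 0.69. HTR1B and HTR2A had r = 0.79 with each other.

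Over the 14 amygdala libraries, with 10592 or 10593 candidates and so few points that high values are common, the likest gene to HTR1A was ELAVL3 (r = 0.92), to HTR1B FAM81A (0.95), to HTR2A GTPBP8 (0.92) and to HTR7 NRAS (0.93). HTR4 was most like PRICKLE1 (0.91), MAOA like ENTPD3 (0.86) and MAOB like ACTB (0.95). HTR2B and HTR2C had no gene above 0.77, with ITM2A and NLRP3 at that value. The genes next in order were CCSER1 (0.92) and KLHL21 (0.92) for HTR1A, LIPG (0.93) and ANOS1 (0.92) for HTR1B, PHOSPHO2 (0.88) and RPUSD4 (0.88) for HTR2A, PIP5K1B (0.69) for HTR2B, and PCSK1 (0.77) and GPR3 (0.75) for HTR2C. For HTR4 they were TLE3 (0.90) and ARNT2 (0.88), for HTR7 ILDR2 (0.91) and KBTBD3 (0.91), for MAOA FASTKD5 (0.86) and DESI2 (0.83), and for MAOB RAC1 (0.93) and SRP54 (0.92).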

How the data were processed

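Messenger RNA of 56 libraries (4 regions of 14 animals) was measured. FastQC 0.1.1.2, Trimmomatic, STAR 2.7.3a, edgeR 3.28.0 and the build Mmul_10 are named in the submitters' processing notes. The counting program and strand setting were not given in the sources used here. The deposited signal is normalized by the authors to 1 upper quartile per library, per the name and values of the table, and dividing by each library's step recovered whole reads (100% of values within 0.01 reads). Libraries held 34629533 to 93335855 recovered reads. Groups and animal numbers came from the labels.

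Values were tested as log2(value + 1) with limma 3.58.1 (R 4.3.3, trend) on identifiers with a mean of at least 10, with Benjamini-Hochberg adjustment over all of them. Folds are on this scale and understate changes of low genes. HT was compared with OvH in each region and, per animal, over hippocampus and both cortices. Regions were compared in 42 libraries with the animal as a block, since libraries with 1 number come from 1 animal. The median correlation within animals was 0.20 over all identifiers. edgeR 4.0.16 and DESeq2 1.42.0 on recovered reads, other scalings, pseudocounts, filters, marker covariates and leaving out each animal were alternatives. The fits of HT in amygdala and of hippocampus against occipital cortex were also made on simulated reads. Those reads held no animal effect and no library set apart, so they cannot show how the fits handle either. Correlations across animals used 100000 permutations. Animals were separate, so n counts animals.

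The members and gene lists were chosen with earlier results of these data known. Named were all members, every listed gene called in a comparison, otherwise each list's extremes, and the 3 genes most like each member, except that 2 such genes are not reported here. Symbols came from a table of Ensembl identifiers, and promoter sequences were not used here.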

Additional observations from a re-analysis of the deposited data

Results flagged for a closer look

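In 66 groups of 7 libraries (a member in a region and treatment), 8 libraries lay far from the other 6, with a gap to the nearest of more than 0.568 of the group's range, where chance marks about 1 in 20 groups. 4 of the 8 concern MAOA in 2 animals. Animal 35 (OvH) read 4589.6 in amygdala, where the other OvH libraries ran from 2862 to 3492, and 5145 in prefrontal cortex, where they ran from 2079 to 2896. Animal 39 (HT) read 3970.2 in amygdala, above 2223 to 2788 in the other HT libraries, and 3227 in prefrontal cortex, above 2004 to 2469.5.

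3 flags concern MAOB. Animal 32 (OvH) read 19384 in amygdala, above 13211 to 14469 in the others. Animal 40 (HT) read 11396 in hippocampus and 5458 in occipital cortex, below 14497 to 16540.4 and 7236 to 8465 in the other HT libraries. Its hippocampal library held choroid plexus markers at 11.67, against 3.66 to 7.48 in 12 other hippocampal libraries. Their part in the MAOB value was not tested. The last flag was HTR2A at 2977 in the hippocampal library of animal 30 (OvH), above 113 to 1279 in the others, which is 1 of the 2 hippocampal libraries whose regional markers stood apart.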

How the results depend on the processing

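Region calls kept their direction in every alternative run, and the calls that were lost or gained were MAOA without the block and HTR2B without animals 30 and 43. For HT the count of members in amygdala was 1 with equal totals, where 1631 of 16129 identifiers were called, against 1112 in the main fit. It was 0 to 2 with each animal left out, and 0 in all alternatives of the other HT comparisons. Animals of 1 treatment differed for 5 members without the hippocampal libraries of animals 30 and 43, where 39.1% of all identifiers were called. With each animal left out they differed for 1 to 4. The replicate block was a random animal effect, with 4 regions in the amygdala fit and 3 in each of the others. With it the amygdala count of members stayed 0, where 1382 of 16129 identifiers were called, and no other HT call changed. That amygdala fit joined rows that may hold different genes in the other regions. With no replicate block 6 members differed between hippocampus and occipital cortex, where 44.4% of all identifiers did.

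With each animal left out in turn 78 of 1134 values of single members changed sign, none of them called and none between regions, 5 gained a call and 7 lost one. Under the other alternatives 36 results for single members changed sign, 5 gained a call, 2 lost one and 831 kept direction and call. Those that changed sign were all for HT and none was called. Without the hippocampal libraries of animals 30 and 43 these were, in hippocampus, HTR1A (-0.024), HTR2A (0.45), HTR2B (0.48), HTR7 (-0.0072) and MAOB (-0.067), and over 3 regions HTR7 (-0.064) and MAOB (-0.039). Without those of animals 33 and 40 they were MAOA (0.023) in hippocampus and HTR1B (-0.089) and HTR2A (-0.020) over 3 regions. edgeR turned HTR2C (-0.22) and HTR7 (-0.071) in amygdala, HTR1B (-0.68) in hippocampus, MAOA (-0.0026) in occipital cortex, and HTR1A (0.22), HTR1B (-0.28) and HTR2A (-0.089) over 3 regions. DESeq2 turned HTR2C (-0.14) in amygdala, HTR1B (-0.71) in hippocampus, and HTR1A (0.22), HTR1B (-0.29) and HTR2A (-0.092) over 3 regions. Equal totals turned HTR2C (-0.091) and HTR7 (-0.051) in amygdala, and a pseudocount of 10 turned HTR1B in hippocampus (-0.014) and over 3 regions (-0.085). The oligodendrocyte covariate turned HTR4 in amygdala (0.38), HTR2A (0.36) and HTR2B (0.32) in hippocampus and HTR7 in occipital cortex (0.015). The pan-neuronal covariate turned HTR1A (0.43), HTR1B (0.40) and HTR4 (0.16) in amygdala, MAOA in occipital cortex (-0.054), and HTR2A (-0.052) and HTR4 (-0.14) in prefrontal cortex. The cause was not tested. Depth limits HTR2B and hippocampal HTR1B, at 9 to 110 and 0 to 122 reads per library. It also limits occipital HTR1A, at 10 to 117 reads, and amygdala HTR1B, at 8 to 187.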
